A study of Mus musculus with 18 samples.

Results

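The proteins that bind N6-methyladenosine (m6A) in RNA, the m6A readers, were followed at the chromatin of their own genes. The 10 genes were *Ythdf1*, *Ythdf2*, *Ythdf3*, *Ythdc1*, *Ythdc2*, *Igf2bp1*, *Igf2bp2*, *Igf2bp3*, *Hnrnpa2b1* and *Hnrnpc*, and every peak annotated with one of these symbols was taken. This gave 18 of the 101256 peaks of the series, spread over 9 of the 10 genes, and no peak carried the symbol of *Igf2bp1*. The values are ChIP-seq signal for RNA polymerase II (Pol II) and for CTCF, a DNA-binding protein that the study used as its control antibody target, in chromatin of mouse ventricles. There were 2 libraries per genotype and target, and 1 IgG library per genotype as background.

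The control hearts are labelled WT. In *Trdn-as* KO mice a polyA cassette in the first exon ends transcription of *Trdn-as*, the long non-coding RNA antisense to the triadin gene. *Mettl3* KO mice are labelled Mettl3lox/lox:alphaMHC-MerCreMerpos, so the m6A methyltransferase gene *Mettl3* is removed only where the cardiomyocyte promoter alphaMHC drives the tamoxifen-inducible Cre, and the other cells of the ventricle keep it. By their labels, WT and *Trdn-as* KO hearts carry no Cre. The study states tamoxifen for the *Mettl3* KO mice and for control mice with the floxed gene alone. Whether the WT hearts here are such controls is not stated, and no tamoxifen is stated for *Trdn-as* KO. Ventricles of a pair of adult hearts went into each chromatin preparation. Nothing in the labels says that replicate libraries came from separate preparations, so the p-values measure the spread between these libraries, which may be technical.

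m6A is written on nascent RNA by a complex around METTL3 and METTL14 and is read by proteins that bind it. The YTH domain family holds the mark in an aromatic pocket. YTHDF1, YTHDF2 and YTHDF3 act on mRNA in the cytoplasm, where YTHDF2 recruits deadenylases and shortens the life of the mRNA. YTHDC1 works on splicing and export in the nucleus, and YTHDC2 is an RNA helicase known for its need in meiosis. The IGF2BP proteins bind mRNA through KH domains and stabilise it, and they are mainly fetal proteins, with IGF2BP2 the one that persists most widely in adult tissue. HNRNPA2B1 and HNRNPC are abundant nuclear proteins of pre-mRNA whose binding can follow m6A, for HNRNPC through the change it makes in RNA structure.

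The comparisons rest mainly on peaks at promoters, so 4 of the promoter sequences are shown before the values. They are RefSeq windows from 250 bases before to 50 bases after the start of the transcript in GRCm38.p6, on the strand of the gene, written 5′ to 3′. Capitals mark letters of the searched motifs on either strand. *Ythdf1* was chosen because it holds the most kinds of motif. *Ythdf2* was chosen because its promoter had nearly as much CTCF as Pol II in reads scaled to library size, though not in the deposited signal. *Igf2bp2* was chosen because it had the least Pol II of the readers above background, and *Hnrnpc* because it holds 4 CCAAT boxes.
Ythdf1, chr2:180920887-180921186, minus strand: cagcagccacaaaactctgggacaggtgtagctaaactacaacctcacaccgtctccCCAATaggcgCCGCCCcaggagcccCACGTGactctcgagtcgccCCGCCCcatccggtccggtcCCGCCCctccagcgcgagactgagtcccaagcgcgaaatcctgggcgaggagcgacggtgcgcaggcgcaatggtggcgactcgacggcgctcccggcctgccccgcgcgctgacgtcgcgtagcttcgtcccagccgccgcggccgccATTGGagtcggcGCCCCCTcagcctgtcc
Ythdf2, chr4:132212207-132212506, minus strand: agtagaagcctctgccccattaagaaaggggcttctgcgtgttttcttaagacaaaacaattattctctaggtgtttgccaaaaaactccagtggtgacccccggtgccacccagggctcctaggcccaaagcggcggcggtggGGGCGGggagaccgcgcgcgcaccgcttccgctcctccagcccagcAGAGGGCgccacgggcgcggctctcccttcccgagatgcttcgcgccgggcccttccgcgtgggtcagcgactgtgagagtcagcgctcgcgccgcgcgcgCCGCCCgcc
Igf2bp2, chr16:22163250-22163549, minus strand: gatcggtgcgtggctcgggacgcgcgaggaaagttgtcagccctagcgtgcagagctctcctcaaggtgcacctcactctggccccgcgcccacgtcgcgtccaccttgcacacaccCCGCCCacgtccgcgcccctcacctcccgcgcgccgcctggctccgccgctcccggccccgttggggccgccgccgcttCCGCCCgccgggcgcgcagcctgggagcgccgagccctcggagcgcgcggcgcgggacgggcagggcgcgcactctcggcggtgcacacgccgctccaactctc
Hnrnpc, chr14:52103972-52104271, minus strand: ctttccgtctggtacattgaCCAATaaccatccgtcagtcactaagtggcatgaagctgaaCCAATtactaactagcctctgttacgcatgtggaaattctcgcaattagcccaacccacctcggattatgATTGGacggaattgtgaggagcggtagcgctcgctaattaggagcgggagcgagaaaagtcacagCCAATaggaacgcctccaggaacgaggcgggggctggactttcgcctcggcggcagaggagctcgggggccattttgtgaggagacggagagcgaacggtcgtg

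The RefSeq table held 8 windows for 7 of the genes, with a pair for *Hnrnpa2b1*. It held none for *Ythdf3*, *Ythdc2* and *Igf2bp1*. The motifs were searched on both strands in all 32851 windows. The TATA box (TATAAA), in 13.6% of all windows, was in none of the reader windows. The CCAAT box (CCAAT, 37.4% of all windows) was in those of *Ythdf1*, *Igf2bp3*, *Hnrnpa2b1* and *Hnrnpc*, and the GC box (GGGCGG, 35.7%) in those of *Ythdf1*, *Ythdf2*, *Ythdc1* and *Igf2bp2*. The E-box (CACGTG, 7.15%) was in the windows of *Ythdf1* and *Igf2bp3*. Of the letters searched for the core of the CTCF motif, AGGGGGC (10.6% of all windows) was in that of *Ythdf1* and AGGTGGC (6.15%) in no reader window. A further form, AGAGGGC (8.32%), was added after the sequences were seen, and it was in the windows of *Ythdf2* and *Ythdc1*. CCGGAAG for ETS factors (8.86%), GCGCATGCG for NRF1 (1.75%) and AAGATGG for YY1 (6.34%) were in none. The GC content of the reader windows ran from 54.3% in *Hnrnpc* to 76.7% in *Igf2bp2*, against a median of 52.7% over all windows. These are letter matches in a fixed window and not measured binding sites.

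The libraries were checked before the readers were compared. At the promoter of *Trdn-as*, Pol II was 530 and 595 in the WT pair, 140 and 100 in the *Trdn-as* KO pair and 503 and 491 in the *Mettl3* KO pair, so the Pol II libraries of *Trdn-as* KO followed their label. At the promoter of *Mettl3* the WT pair had 177 and 202 and the *Mettl3* KO pair 240 and 235, and this promoter peak does not test the deletion, so the *Mettl3* KO label was not checked by a value. All 8 cardiomyocyte markers had a peak, and the one measured gene of the markers from outside the heart had Pol II values of at most 3. Chromosome Y peaks had no signal in any *Trdn-as* KO library and had signal in all others, so these hearts differ from the others in the Y chromosome. The second *Trdn-as* KO library for Pol II stood apart, with 18.6% of its uniquely mapped reads in peaks against 35.5% to 42.6% in the other 5. Pol II at the 5 fibroblast markers, summed, was 642 and 676 in the WT pair, 969 and 656 in the *Trdn-as* KO pair and 1419 and 1415 in the *Mettl3* KO pair, and 4 of these 5 genes were called higher in *Mettl3* KO than in WT. All 5 had a peak.

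The level of Pol II differed widely between the readers. For each gene the promoter peak with the most Pol II is called its lead peak, and values between genes are compared per kilobase of that peak, in the deposited normalized signal. In WT, *Hnrnpa2b1* had 405 and 385 per kilobase, *Hnrnpc* 341 and 323, and *Ythdc1* 311 and 297. *Ythdf3* followed with 264 and 226, *Ythdc2* with 198 and 192, *Ythdf1* with 179 and 191 and *Ythdf2* with 136 and 164. *Igf2bp2* had 59.8 and 48.0 and *Igf2bp3* 17.4 and 6.97. Between neighbours in this order the WT libraries did not overlap, but *Ythdc2* and *Ythdf1* were too close to be told apart given the spread of their libraries. Among the lead peaks of the 13979 genes with a symbol, *Hnrnpa2b1* stood at percentile 99.8, *Hnrnpc* at 98.7 and *Ythdc1* at 97.4 in WT, *Ythdf2* at 59.3, and *Igf2bp2* and *Igf2bp3* at 25.5 and 11.0. Peak length itself follows the peak calling, and the lead peaks ran from 287 nt at *Igf2bp3* to 3080 nt at *Hnrnpa2b1*.

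The lead peak of *Hnrnpa2b1* (ENSMUSG00000004980, minus strand, chr6:51445356-51448435 in GRCm39) is also the promoter region of a second gene. In the GRCm38 annotation *Cbx3*, which encodes a heterochromatin protein, starts 466 nt from *Hnrnpa2b1* on the opposite strand, and it has no peak of its own in the table. Pol II at this peak cannot be assigned to one of the pair. No other reader with a peak had such a neighbour within the searched distance.

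**Figure D1:**
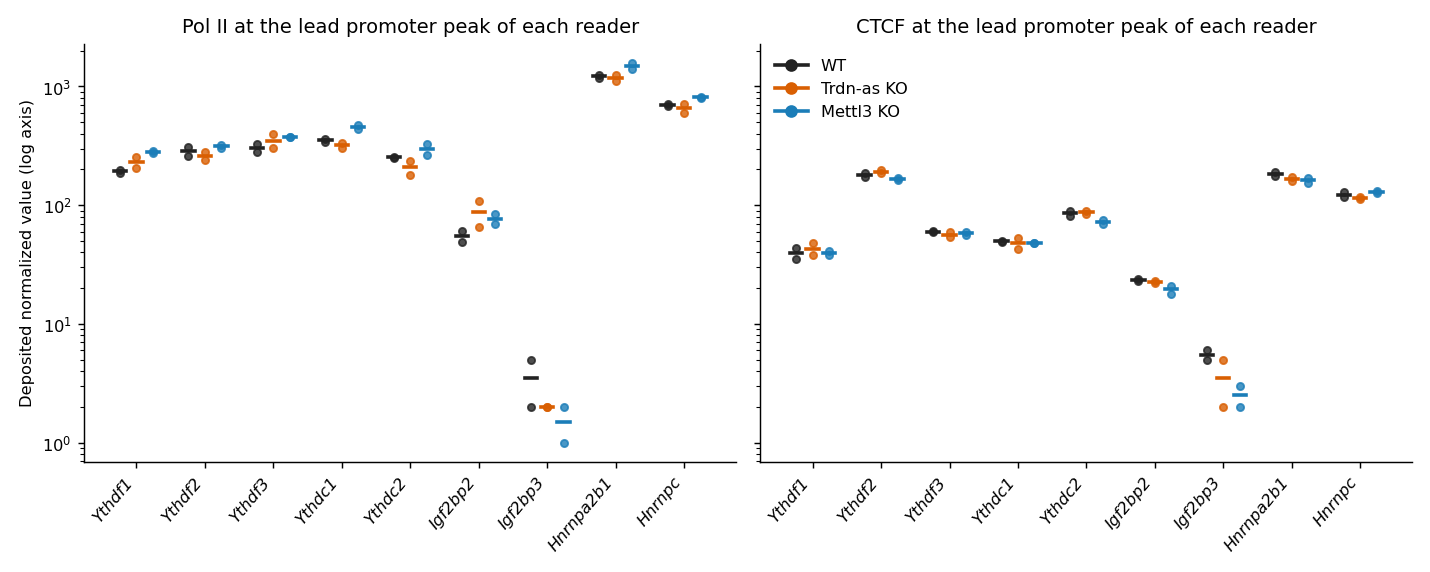
Deposited normalized values of Pol II (left) and CTCF (right) on a log axis at the lead promoter peak of 9 readers. Each point is 1 library, each bar the mean of the 2 libraries of a genotype. Pol II was highest at *Hnrnpa2b1* (1104 to 1577) and lowest at *Igf2bp3* (1 to 5). Both *Mettl3* KO points for Pol II lie above both WT points for 7 genes. The same held at 76.4% of the lead promoter peaks of all genes with a mean value of at least 50.

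The cytoplasmic YTH readers had lead peaks of middle height. At *Ythdf1* (ENSMUSG00000038848, minus strand, chr2:180562209-180563252, centre 11 nt from the gene start) Pol II was 187 and 199 in the WT pair, 256 and 206 in the *Trdn-as* KO pair and 286 and 277 in the *Mettl3* KO pair. Both *Mettl3* KO libraries lay above both *Trdn-as* KO libraries, and these above WT. Of the lead promoter peaks of all genes with a mean value of at least 50, 76.4% had *Mettl3* KO above WT and 9.95% had *Trdn-as* KO above WT. At *Ythdf2* (ENSMUSG00000040025, minus strand, chr4:131938403-131940303) Pol II was 259 and 312 in the WT pair, 280 and 242 in the *Trdn-as* KO pair and 305 and 322 in the *Mettl3* KO pair. At *Ythdf3* (ENSMUSG00000047213, plus strand, chr3:16236892-16238123) it was 325 and 279 in the WT pair, 398 and 303 in the *Trdn-as* KO pair and 376 and 378 in the *Mettl3* KO pair. The WT values of *Ythdf2* overlapped those of both knockouts, and those of *Ythdf3* overlapped *Trdn-as* KO but not *Mettl3* KO.

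At *Ythdc1* and *Ythdc2* the *Trdn-as* KO libraries lay below WT, as they did at 12.7% of all tested lead promoter peaks. At *Ythdc1* (ENSMUSG00000035851, plus strand, chr5:86951626-86952781) Pol II was 359 and 343 in the WT pair, 336 and 301 in the *Trdn-as* KO pair and 439 and 475 in the *Mettl3* KO pair. At *Ythdc2* (ENSMUSG00000034653, plus strand, chr18:44961132-44962426) it was 257 and 248 in the WT pair, 237 and 179 in the *Trdn-as* KO pair and 265 and 327 in the *Mettl3* KO pair. The centre of the *Ythdc2* peak lay 966 nt downstream of the gene start, the farthest of the lead peaks. In both genes the 3 genotypes did not overlap. *Mettl3* KO lay above WT at 76.4% of the lead promoter peaks of all genes with a mean value of at least 50, and the share with all 3 genotypes apart was not counted.

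The hnRNP readers had the tallest peaks. At *Hnrnpa2b1* Pol II was 1247 and 1186 in the WT pair, 1259 and 1104 in the *Trdn-as* KO pair and 1409 and 1577 in the *Mettl3* KO pair. At *Hnrnpc* (ENSMUSG00000060373, minus strand, chr14:52340520-52342621) it was 716 and 679 in the WT pair, 706 and 603 in the *Trdn-as* KO pair and 821 and 803 in the *Mettl3* KO pair. In both genes WT overlapped *Trdn-as* KO and lay below *Mettl3* KO. *Hnrnpc* is on the same chromosome as *Mettl3*, whose promoter peak is at chr14:52541954-52542861.

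The IGF2BP genes were at the low end. At the lead peak of *Igf2bp2* (ENSMUSG00000033581, minus strand, chr16:21981512-21982531) Pol II was 61 and 49 in the WT pair, 109 and 65 in the *Trdn-as* KO pair and 69 and 85 in the *Mettl3* KO pair. Both knockouts lay above WT and overlapped each other. At the lead peak of *Igf2bp3* (ENSMUSG00000029814, minus strand, chr6:49191749-49192035) Pol II was 5 and 2 in the WT pair, 2 and 2 in the *Trdn-as* KO pair and 1 and 2 in the *Mettl3* KO pair. The WT Pol II libraries came to 0.302 estimated RPM there (reads scaled to the uniquely mapped reads of the library) and the WT IgG library to 0.119, from 2 IgG reads. In the knockouts Pol II was below the IgG, with 0.118 against 0.578 in *Trdn-as* KO and 0.121 against 0.144 in *Mettl3* KO, from 3 and 1 IgG reads. No reader peak of *Igf2bp3* was high enough to be tested.

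Genotypes were compared with limma on log2(value + 1) over all 6 libraries of a target, at a Benjamini-Hochberg adjusted p of 0.05 over every peak that reached a value of 10 in 2 or more libraries. For Pol II this took in 11 of the 18 reader peaks, among them the lead peaks of 8 genes, and for CTCF 10. Fold changes on this scale understate those of low peaks. In bulk ventricle fewer cells of a type and less signal per cell cannot be told apart.

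Between *Mettl3* KO and WT no reader peak passed the threshold for Pol II, while 1.19% of all tested peaks did. Unadjusted p was below 0.05 at 4 of the 11 reader peaks and at 8163 of the 52655 peaks tested (15.5%). The log2 fold change was above 0 at all 8 lead peaks and remained so under every alternative setting run, although with the uniquely mapped reads as library size the median over all tested peaks moved from 0.08 to -0.06. With that library size the adjusted p was 1 at each lead peak, and *Ythdf2* went from 0.14 to 0.00046, *Hnrnpc* from 0.22 to 0.08, *Ythdc2* from 0.22 to 0.08, *Hnrnpa2b1* from 0.29 to 0.15, *Ythdf3* from 0.32 to 0.18 and *Ythdc1* from 0.38 to 0.24. Without the first *Mettl3* KO library *Ythdc2* was 0.37, and without the second 0.07. *Ythdf3* was 0.21 without the second WT library, and *Ythdf2* was 0.01 without the first WT library and 0.27 without the second. *Ythdf1* had the highest value, 0.54 (SE 0.19, adjusted p = 0.15 by limma), which is 1.46-fold. *Igf2bp2* followed with 0.48 (SE 0.29, adjusted p = 0.42 by limma) and *Ythdc1* with 0.38 (SE 0.17, adjusted p = 0.26 by limma). *Ythdf3*, *Hnrnpa2b1*, *Ythdc2* and *Hnrnpc* lay between 0.32 and 0.22, and *Ythdf2* was lowest at 0.14 with a 95% interval from -0.23 to 0.51. The interval lay above 0 for *Ythdf1*, *Ythdc1* and *Hnrnpa2b1*.

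The difference was shared with other promoters. Both *Mettl3* KO libraries exceeded both WT libraries at 7 of the 8 lead peaks, all but that of *Ythdf2*. The same held for 76.4% of the lead promoter peaks of all genes with a mean value of at least 50, and for 31.2% of all tested peaks. The median log2 fold change was 0.31 over the 8 reader lead peaks, 0.28 over those promoters and 0.08 over all tested peaks. The reader median thus lay close to that of the other promoters. In the same comparison the fibroblast markers *Col1a1*, *Col1a2*, *Col3a1* and *Pdgfra* were called higher, with log2 fold changes of 1.19, 1.09, 1.45 and 1.12. The mural cell marker *Pdgfrb* was called higher too, with 0.78 (adjusted p = 0.016 by limma), as 1 of 4 mural markers, and none of 8 cardiomyocyte markers was called. The part of cell makeup in the reader values was not tested.

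Whether single readers passed depended on the *Trdn-as* KO libraries, which enter the shared estimate of the spread. With only WT and *Mettl3* KO in the fit, the lead peaks of *Ythdf1* (adjusted p = 0.014 by limma), *Ythdc1* (0.019), *Hnrnpa2b1* (0.013) and *Hnrnpc* (0.035) passed, all higher in *Mettl3* KO. In that fit 10.3% of all tested peaks passed, and 32.4% of the lead promoter peaks with a mean of at least 50. The same 4 peaks passed without the first *Trdn-as* KO library (9.71% of all tested peaks, 32.5% of those promoters) and without the second (9.97% and 32.7%). With size factors recomputed over the Pol II libraries, *Ythdf1* (0.037) passed and the other 3 did not (4.98% of all tested peaks, 10.5% of those promoters). None passed without either *Mettl3* KO or either WT library.

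**Figure D2:**
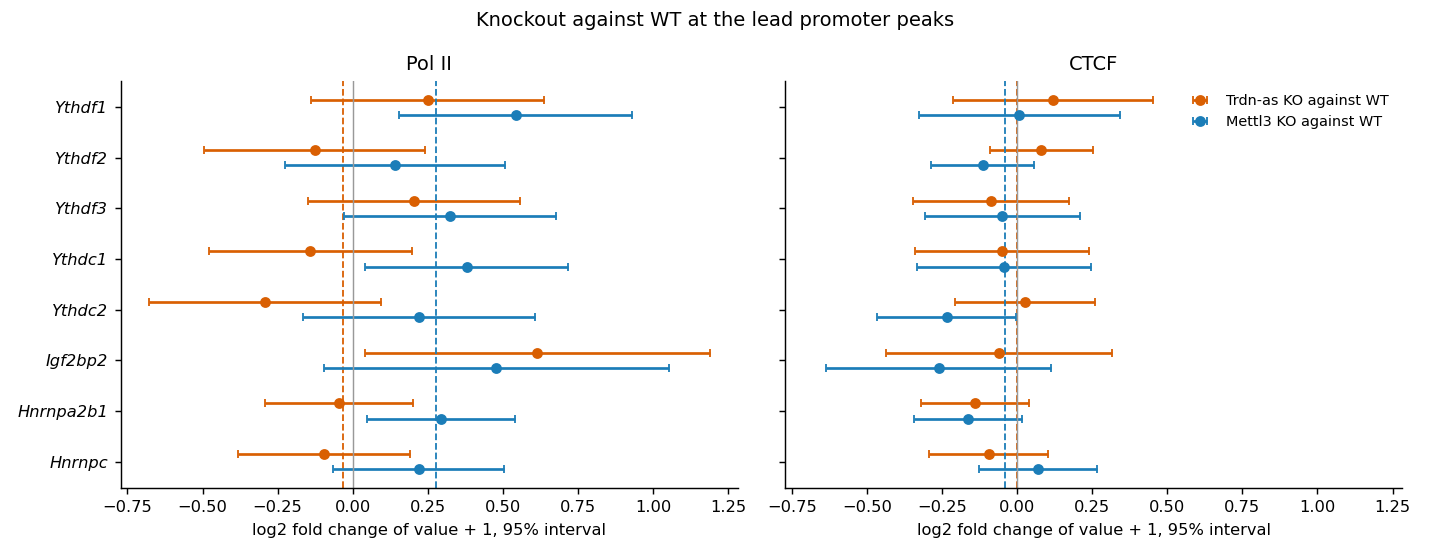
log2 fold changes of value + 1 with 95% intervals at the lead peaks of the 8 tested readers, for each knockout against WT. Dashed lines mark the median over the lead promoter peaks of all genes with a mean value of at least 50 in the same comparison. For Pol II the *Mettl3* KO values lie between 0.14 and 0.54 around a median of 0.28, and the CTCF values lie between -0.26 and 0.12.

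The 3 tested peaks that were not lead peaks were all faint, and none was called for Pol II in the reported fit. A peak inside *Hnrnpa2b1*, at chr6:51443644-51444180 with its centre 2962 nt downstream of the gene start, had Pol II values of 29 and 24 in the WT pair, 29 and 14 in the *Trdn-as* KO pair and 10 and 8 in the *Mettl3* KO pair. Both *Mettl3* KO libraries lay below all others, and 19.5% of all tested peaks had both below both WT libraries. The IgG values there were 25 in WT, 26 in *Trdn-as* KO and 14 in *Mettl3* KO. The log2 fold change against WT was -1.46 (SE 0.49, adjusted p = 0.12 by limma). It passed with recomputed size factors (adjusted p = 0.0497 by limma) and without the second *Trdn-as* KO library (0.042). In estimated RPM, Pol II there was 3.90 times the IgG in WT and 1.82 times in *Trdn-as* KO, with IgG from 10 and 4 reads. With the reads in peaks as library size the ratios were 0.48 and 0.32. That size takes out the enrichment of the peak set as a whole, so these ratios only place the peak below that average. The neighbouring peak at chr6:51444387-51445024 had 8 and 18 in the WT pair, 26 and 26 in the *Trdn-as* KO pair and 12 and 16 in the *Mettl3* KO pair, overlapping between WT and *Mettl3* KO. At the peak upstream of *Hnrnpc*, chr14:52344166-52344476, Pol II was 5 and 17 in the WT pair, 8 and 4 in the *Trdn-as* KO pair and 19 and 21 in the *Mettl3* KO pair, the last above all others. Its log2 fold change was 1.01 against WT (SE 0.65, adjusted p = 0.45 by limma) and 1.64 against *Trdn-as* KO (SE 0.65, adjusted p = 0.17 by limma). The value against WT was 0.22 without the first WT library and 1.81 without the second.

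Between *Trdn-as* KO and WT no reader peak was called for Pol II, and 0.304% of all tested peaks were. Unadjusted p was below 0.05 at 2 of the 11 reader peaks and at 4052 of the 52655 tested (7.7%). *Igf2bp2* had the highest lead-peak value, 0.61 (SE 0.29, adjusted p = 0.61 by limma), and *Ythdc2* the lowest, -0.29 (SE 0.19, adjusted p = 0.79 by limma). The *Igf2bp2* value was 0.25 without the first *Trdn-as* KO library, 0.98 without the second and 0.02 with the uniquely mapped reads as library size. Without the first and the second *Trdn-as* KO library, *Ythdc2* went to -0.49 and -0.09, *Ythdf1* from 0.25 to 0.09 and 0.41, and *Ythdf3* from 0.21 to 0.01 and 0.40. Both *Trdn-as* KO libraries exceeded both WT libraries at 2 of the 8 lead peaks, *Ythdf1* and *Igf2bp2*, where 9.95% of the promoters with a mean of at least 50 and 12.9% of all tested peaks did. They lay below at 2, *Ythdc1* and *Ythdc2*. The direction for *Ythdf1* (0.25) and *Ythdf3* (0.21) turned with the uniquely mapped reads as library size, to -0.35 and -0.39, a scaling that moved the median of all tested peaks from -0.07 to -0.67. Of the 8 cardiomyocyte markers *Myh6* was called lower in *Trdn-as* KO than in WT, with a log2 fold change of -0.35 (adjusted p = 0.029 by limma), and none of the fibroblast or mural markers was called, and the part of these levels in the reader values was not tested. Without the second *Trdn-as* KO library *Hnrnpa2b1* went from -0.04 to 0.05 and *Hnrnpc* from -0.10 to 0.02.

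Between the knockouts no reader peak was called for Pol II, against 1.5% of all tested peaks. Unadjusted p was below 0.05 at 6 of the 11 and at 17.9% of all tested peaks. The median log2 fold change was 0.30 over the 8 reader lead peaks. It was 0.31 over the lead promoter peaks of all genes with a mean value of at least 50, so the readers lay close to other promoters. Among the lead peaks *Ythdc1* had the highest log2 fold change of *Mettl3* KO over *Trdn-as* KO, 0.52 (SE 0.17, adjusted p = 0.094 by limma), and *Ythdc2* came next with 0.51 (SE 0.19, adjusted p = 0.15 by limma). *Ythdc2* went to 0.71 without the first *Trdn-as* KO library and to 0.31 without the second. With the uniquely mapped reads as library size *Ythdc1* had 0.98 and *Ythdc2* 0.97, with adjusted p of 0.37 and 0.38 by limma. This comparison and the one against WT share the *Mettl3* KO libraries. The same 4 fibroblast markers, *Pdgfrb* and *Myh6* were called higher in *Mettl3* KO here. Without the first *Trdn-as* KO library, which leaves the shallower one alone in its group, the lead peaks of *Ythdf1*, *Ythdc1*, *Ythdc2*, *Hnrnpa2b1* and *Hnrnpc* passed. In that fit 19.3% of all tested peaks and 60.7% of the promoters with a mean of at least 50 passed too, and the lone library was assumed to vary like the other groups.

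CTCF at the reader promoters followed an order of its own. In WT the lead peak of *Ythdf2* had 188 and 174, about the level of the longer *Hnrnpa2b1* peak with 189 and 176. *Hnrnpc* had 129 and 117 and *Ythdc2* 90 and 81. *Ythdf3*, *Ythdc1* and *Ythdf1* had 61 and 59, 50 and 49, and 44 and 35, and *Igf2bp2* had 24 and 23. Per kilobase *Ythdf2* was first, with 98.9 and 91.5 against 61.4 and 57.1 for *Hnrnpa2b1*. In estimated RPM, the mean of Pol II was 1.13 times that of CTCF at *Ythdf2* in WT, where the Pol II libraries (21.9 and 28.2) overlapped the CTCF libraries (22.8 and 21.5). It was 2.11 times at *Ythdc2* and 5.06 times at *Ythdc1*. The printed *Ythdf2* window holds the AGAGGGC form of the CTCF core, as does that of *Ythdc1*, whose CTCF value was far lower.

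No reader peak was called for CTCF in any comparison. The share of all tested peaks called was 0.587% for *Trdn-as* KO against WT, 0.185% for *Mettl3* KO against WT and 1.37% between the knockouts, and unadjusted p was below 0.05 at 0, 1 and 2 of the 10 reader peaks, beside 10.2%, 15.7% and 18.8% of all tested peaks. The lead peak of *Ythdc2* had 90 and 81 in the WT pair, 85 and 89 in the *Trdn-as* KO pair and 75 and 70 in the *Mettl3* KO pair, the last below both others. Its log2 fold change in *Mettl3* KO against WT was -0.23 (SE 0.11, adjusted p = 0.31 by limma). At *Ythdf2* the *Trdn-as* KO pair had CTCF values of 185 and 198 and the *Mettl3* KO pair 163 and 171, again the lowest. At 5 of the 8 lead peaks the higher *Mettl3* KO library was below the lower WT library, as it was at 29.7% of all tested lead promoter peaks. These 5 were *Ythdf2*, *Ythdc1*, *Ythdc2*, *Igf2bp2* and *Hnrnpa2b1*, and the direction of *Ythdc1* turned with recomputed size factors, to 0.02.

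For the comparison with IgG, values were put on estimated RPM with the value of 1 read in each library. On this scale Pol II and CTCF exceeded the IgG at the lead peaks of all readers with enough IgG reads for a ratio. Where the IgG library held more than 3 reads, Pol II was 5.53 to 45.1 times the IgG, with a median of 17.5 over 22 values of a gene in a genotype. The median over promoters of all genes with a mean value of at least 50 was 14.7 in WT, 8.50 in *Trdn-as* KO and 12.6 in *Mettl3* KO. In WT *Ythdf1* was highest with 25.4 times and *Igf2bp2* lowest with 11.2 times. CTCF was 2.48 to 11.9 times the IgG, with a median of 5.18. In WT it was highest at *Ythdc2*, 10.3 times, and *Ythdf2*, 10.2 times, and lowest at *Hnrnpa2b1*, 4.20 times. There was 1 IgG library per genotype, so none of these ratios was tested. They depend on the library size used. Peaks held 18.6% to 42.6% of the uniquely mapped reads for Pol II, 32.1% to 39.2% for CTCF and 4.91% to 5.71% for IgG. With the reads in peaks as library size, the enrichment of the peak set as a whole is therefore taken out. That scale sets a peak against this average and does not measure enrichment over the IgG. The median ratio on it was 2.38 for Pol II and 0.73 for CTCF. The CTCF ratio on it was above 1 in all 3 genotypes at *Ythdf2* (1.37, 1.14 and 1.91) and *Ythdc2* (1.38, 1.30 and 1.78). Among the other lead peaks with a ratio it was so only at *Ythdf3* in *Mettl3* KO (1.73).

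**Figure D3:**
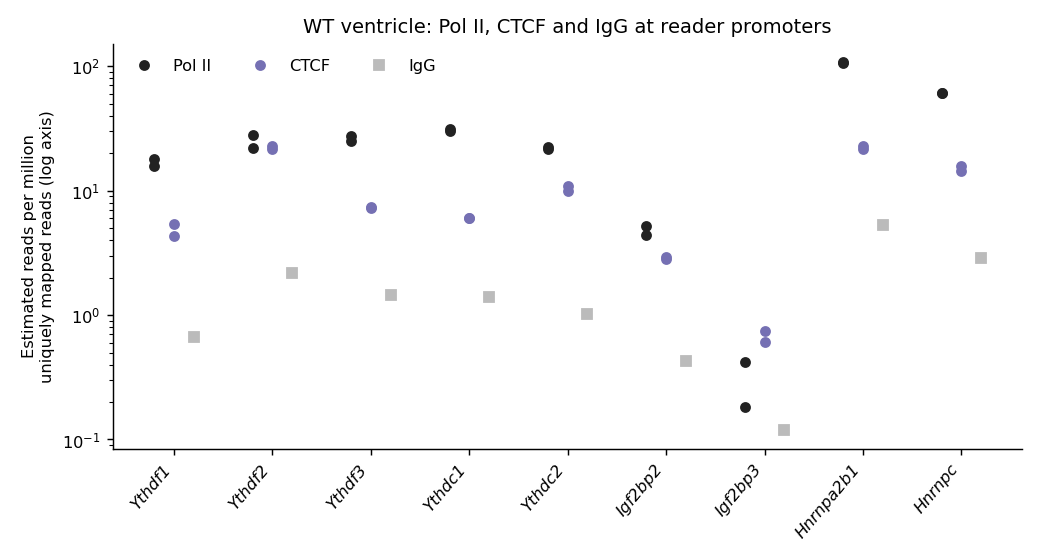
Estimated RPM in WT on a log axis at the lead peak of each reader, with 2 points for Pol II, 2 for CTCF and 1 for IgG. Pol II lies above CTCF at 8 readers in the mean of the libraries, by as little as 1.13 times at *Ythdf2*, and at *Igf2bp3* CTCF is the higher.

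The longest readers held most of the peaks inside genes. A further 16 peaks lay inside a reader but farther than 5000 nt from a gene start and carry no symbol, 9 of them in *Igf2bp2*, 5 in *Igf2bp3*, and 1 each in *Ythdf2* and *Hnrnpc*. *Igf2bp2* and *Igf2bp3* span 104291 and 129735 nt, against at most 61979 nt for the other readers, and whether the count of inside peaks differs beyond length was not tested. The strongest in *Igf2bp2*, at chr16:21942208-21943057, was a CTCF peak, with CTCF values of 71 and 56 in the WT pair, 68 and 85 in the *Trdn-as* KO pair and 68 and 62 in the *Mettl3* KO pair. CTCF there was 10.6, 11.9 and 12.2 times the IgG in the 3 genotypes, and Pol II was 5 and 5 in the WT pair, 14 and 16 in the *Trdn-as* KO pair and 5 and 2 in the *Mettl3* KO pair. Pol II was thus at about the level of the IgG or below it, at 0.59, 1.16 and 0.41 times in WT, *Trdn-as* KO and *Mettl3* KO. This gave CTCF of up to 85 in the body of *Igf2bp2* against at most 24 at its promoter.

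The peak of *Igf2bp3* with the highest Pol II value lay far from its start. At chr6:49073403-49074573, near the end of the gene, Pol II was 46 and 46 in the WT pair, 49 and 43 in the *Trdn-as* KO pair and 62 and 62 in the *Mettl3* KO pair, and CTCF was 32 and 33 in WT. The IgG libraries had 46, 26 and 46 in WT, *Trdn-as* KO and *Mettl3* KO. In estimated RPM, Pol II was 3.69, 3.67 and 3.71 times the IgG in the 3 genotypes and CTCF 3.65, 5.19 and 2.82 times, so the signal was not higher for Pol II than for CTCF in WT beyond the spread of the libraries. With the reads in peaks as library size the Pol II ratios were 0.45, 0.71 and 0.52, which place this peak below the average enrichment of the peak set. The log2 fold change of Pol II in *Mettl3* KO against WT was 0.42 (SE 0.31, adjusted p = 0.52 by limma). The promoter of *Igf2bp3* had at most 5. None of the inside peaks was called in any comparison.

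**Figure D4:**
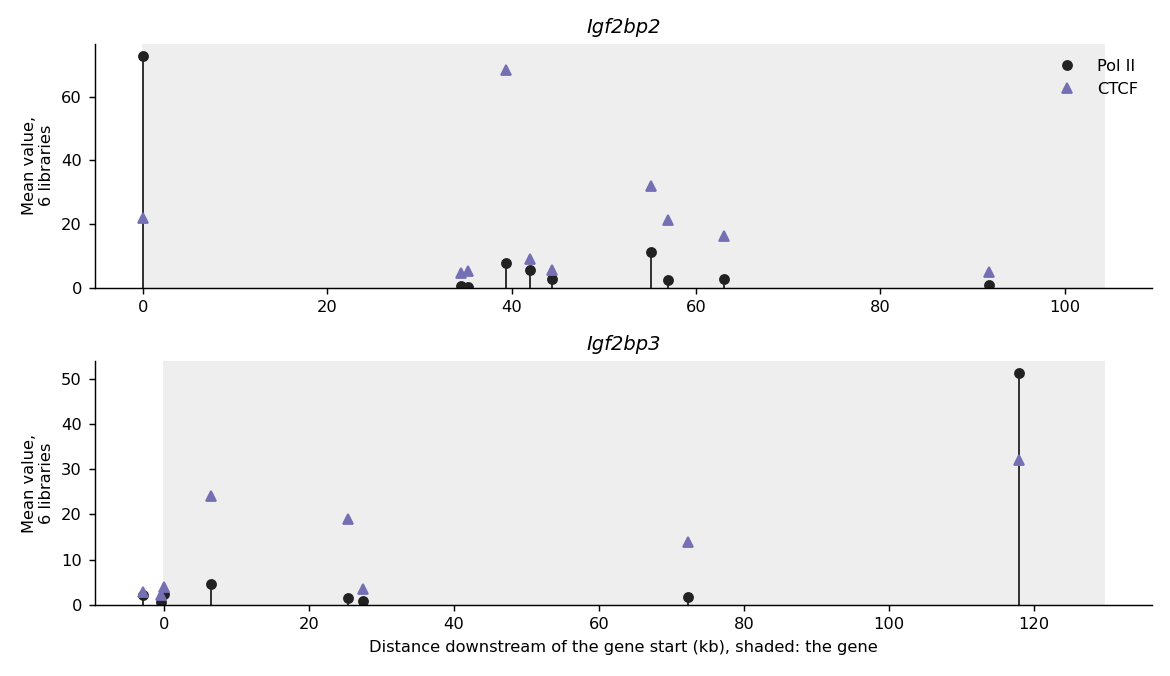
Mean values over 6 libraries of Pol II (circles) and CTCF (triangles) at every peak of *Igf2bp2* and *Igf2bp3*, by distance from the gene start in kilobases, with the gene shaded. The promoter holds the highest Pol II value in *Igf2bp2*, and the highest in *Igf2bp3* is the peak near its end, with 46 and 46 in WT.

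The share of Pol II at the promoter was compared within libraries, where any scale factor of a library cancels. All 18 reader peaks lie within 5000 nt of a gene start, so the inside peaks without a symbol were taken as the rest of the gene. The share is thus one of called peaks and not of all Pol II over the gene. In *Igf2bp2* the promoter held 77.2% and 55.1% of the Pol II value summed over its peaks in the WT pair, 75.7% and 58.6% in the *Trdn-as* KO pair and 65.7% and 73.3% in the *Mettl3* KO pair. Pol II at its inside peaks was 0.23 to 2.05 times the IgG where a ratio was given, so much of that part may be background. In *Hnrnpc* the promoter held 98.4% to 99.8% and in *Ythdf2* 96.0% to 98.5% over the 6 libraries. The rest was 1 faint inside peak in each, with Pol II of 2 to 10 in *Hnrnpc* and 4 to 10 in *Ythdf2*. A high share was thus fixed by the peaks called. The exact permutation test gave p from 0.67 to 1 for each knockout against WT in these 3 genes, and with 2 libraries against 2 it cannot go below 0.33. The genotypes overlapped in these 3 genes. In *Igf2bp3*, whose promoter values were at most 5, the share was 13.3% and 8.06% in the WT pair, 7.69% and 10.2% in the *Trdn-as* KO pair and 4.17% and 5.48% in the *Mettl3* KO pair. Both *Mettl3* KO libraries lay below WT there, with a mean difference of -5.88 percentage points (exact permutation p = 0.33, the smallest this design allows). With only the lead promoter peak counted, the *Hnrnpc* share was 95.2% and 95.9% in the WT pair and 97.8% and 97.1% in the *Trdn-as* KO pair, which do not overlap, and the difference turned from -0.25 to 1.88 percentage points.

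The other genes of the pathway were read from lists of known factors. The writers and erasers were METTL3, METTL14 and their partners with the demethylases FTO and ALKBH5, and 10 of the 11 had a tested lead peak. Of 11 other proposed readers, such as the FMR1 family, 10 did, and of 10 partners and effectors of the readers, such as the deadenylase subunit gene *Cnot1*, 7 did. None was called in any of the 3 Pol II or 3 CTCF comparisons. Between *Mettl3* KO and WT the median log2 fold change of Pol II was 0.34 for the writers and erasers, 0.37 for the other proposed readers and 0.23 for the partners, with 10 of 10, 10 of 10 and 6 of 7 above 0, beside 0.28 over all promoters with a mean of at least 50. Between *Trdn-as* KO and WT these medians were -0.07, 0.03 and -0.13.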

How the data were processed

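ChIP-seq libraries of mouse ventricles were analysed for Pol II (6), CTCF (6) and IgG (3). Per the study's methods and labels, the authors used Trimmomatic 0.39 to trim, STAR 2.7.11b to align to GRCm39, removed duplicates with Picard 3.1.1, called peaks with MACS against input, merged them, counted reads with featureCounts, normalized the counts with DESeq2 1.36.0 and annotated each peak to a gene start within 5000 nt. What was deposited is this signal in whole numbers, a score after normalization and rounding and not a count, so no count test was run.

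The readers were all 10 genes named, each with every peak carrying its symbol, and the members and gene lists were chosen with earlier results of these data known. The lead peak of a gene was its promoter peak with the highest mean Pol II value over the 6 libraries. limma 3.58.1 in R 4.3.3 was fitted on log2(value + 1) over the 3 genotypes with a variance trend. Tested on simulated data with 200 peaks changed by 2 on the log2 scale, it recovered 77% of them for Pol II with 11 false calls among 48404 peaks, and 100% for CTCF with 1 among 58420. Recovery of changes as small as those at the reader lead peaks was not tested. The value of 1 read was estimated from the spacing of each library's values, from 0.94 to 2.04 for Pol II, 0.28 to 0.46 for CTCF and 2.55 to 6.56 for IgG, and RPM used the uniquely mapped reads stated by the study. The Pol II libraries held an estimated 1987640 to 4953301 reads in peaks, the CTCF libraries 6789360 to 10163646 and the IgG libraries 273491 to 813042. Ratios to IgG were given only above 3 IgG reads. Promoter shares were compared by an exact permutation test. Alternatives were other library sizes, pseudocount 5, no filter, only the compared genotypes, a replicate block, no variance trend, peaks summed per gene and leaving out each library. The inside peaks, the AGAGGGC motif, the promoter background and a crossed block were chosen after seeing the data. Sequences came from RefSeq windows in GRCm38.p6, whose coordinates were not joined to the GRCm39 peaks. Python 3.11.15 and pandas 2.3.3 were used for the rest.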

Additional observations from a re-analysis of the deposited data

How the results depend on the processing

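Of 680 repeats of the lead-peak fold changes of the 6 comparisons under another setting, 629 kept their direction and their side of the threshold, 18 passed the threshold where the reported fit did not, and 33 turned, all of them values that were not called. The count of reader peaks called was 0 under every setting for both CTCF comparisons with WT, for CTCF between the knockouts and for Pol II in *Trdn-as* KO against WT. For Pol II in *Mettl3* KO against WT it was 2 with size factors recomputed over the target's libraries, 4 with only the 2 genotypes compared, and 0 to 5 when a library was left out. Between the knockouts it was 0 to 5 when a library was left out. The fit with only the compared genotypes and those without a *Trdn-as* KO library differ from the reported one in the samples that set the spread. For *Mettl3* KO against WT these fits take it from the same WT and *Mettl3* KO libraries, so their calls are not independent of each other.

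For Pol II in *Trdn-as* KO against WT, the uniquely mapped reads as library size gave -0.35 for *Ythdf1* and -0.39 for *Ythdf3*, and recomputed size factors 0.028 for *Hnrnpa2b1*. Leaving out a library gave -0.26 to 0.0073 for *Ythdf2*, -0.14 to 0.050 for *Hnrnpa2b1* and -0.21 to 0.018 for *Hnrnpc*. For CTCF in *Trdn-as* KO against WT, *Ythdc2* was -0.049 with the uniquely mapped reads and -0.010 with recomputed size factors, and leaving out a library gave -0.045 to 0.28 for *Ythdf1*, -0.20 to 0.10 for *Ythdc1* and -0.049 to 0.10 for *Ythdc2*. For CTCF in *Mettl3* KO against WT, recomputed size factors gave 0.011 for *Ythdf3* and 0.016 for *Ythdc1*, and peaks summed per gene -0.031 for *Ythdf1*. Leaving out a library there gave -0.15 to 0.17 for *Ythdf1*, -0.10 to 0.00019 for *Ythdf3* and -0.00017 to 0.14 for *Hnrnpc*. Between the knockouts, *Igf2bp2* Pol II was 0.32 with the uniquely mapped reads and -0.50 to 0.23 without a library, and *Ythdf3* Pol II -0.054 with recomputed size factors and -0.078 to 0.31 without a library. CTCF of *Hnrnpa2b1* was 0.062 and 0.075 under these library sizes in the same order and -0.093 to 0.048 without a library, which gave -0.28 to 0.053 for *Ythdf1*, -0.025 to 0.10 for *Ythdf3* and -0.14 to 0.16 for *Ythdc1*. The cause was not tested.

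The promoter share difference against WT, in percentage points, turned in *Hnrnpc* of *Trdn-as* KO to 1.88 with only the lead promoter peak and ran from -0.85 to 0.34 when a library was left out. In *Mettl3* KO it ran from -0.19 to 0.53 for *Hnrnpc*, -0.36 to 0.62 for *Ythdf2* and -7.72 to 14.4 for *Igf2bp2*, and in *Trdn-as* KO from -10.1 to 12.1 for *Igf2bp2* and from -4.40 to 0.87 for *Igf2bp3*. With the reads in peaks as library size, which takes out the enrichment of the peak set as a whole, the median ratio to IgG was 2.38 for Pol II and 0.73 for CTCF.

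With a replicate block the reader peaks called were 0 in all 6 comparisons, so it changed no call. The correlation of same-numbered libraries' deviations over peaks was -0.0096 to 0.0059, except -0.24 for CTCF between WT and *Trdn-as* KO, where opposite numbers moved together, so the numbers do not pair the libraries. Over all peaks the block called 236 against 356 for CTCF in *Trdn-as* KO against WT, and with crossed numbers 503, again with 0 at the readers.

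Counts over all tested peaks moved by more than 1.5 times under many settings, for Pol II from 4 to 2185 around 160 in *Trdn-as* KO against WT, from 0 to 4975 around 629 in *Mettl3* KO against WT, and from 11 to 9789 around 790 between the knockouts. For CTCF they ran from 1 to 503 around 356, from 0 to 644 around 112 and from 1 to 1179 around 828 in the same order. With 2 libraries per genotype, the intervals at most tested reader peaks took in 0, except for Pol II between the knockouts, where 6 of 11 did not. No ratio was given at peaks of at most 3 IgG reads, and these went both ways. In *Trdn-as* KO the lead peak of *Ythdc1* had Pol II of 19.1 estimated RPM and that of *Igf2bp3* 0.118, each against 0.578 for the IgG.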
